A study of Homo sapiens with 12 samples.

Results

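The genes described here are the human histone genes that carry family numbers: the linker histone genes of the H1 family and the clustered core histone genes of the H2A, H2B, H3 and H4 families. They were taken by symbol, and 72 of the 60835 symbols in the count tables are described: 9 H1, 17 H2A, 18 H2B, 13 H3 and 15 H4 genes. RNA was sequenced from LNCaP, an established human prostate cancer cell line that responds to androgen (the cell line label itself reads LACAP cell). The 12 libraries made 4 groups of 3 biological replicates, as the series design calls them: cells with a control shRNA and cells with shRNA-FOXA1, and, as a separate pair, cells with a control shRNA and cells with shRNA-TRIM28. The labels conflict in places: the groups follow the treatment label and, for the control of each pair, the title, whereas the 6 knockdown titles begin with SH control, 6 genotype labels name a gene with another number than the title does, and the deposited columns mark the knockdowns SI. Every library came from shRNA-treated LNCaP cells and was made from poly(A)-selected RNA, and how many hairpins were used per target is not given in the sources used here. FOXA1 opens chromatin for the androgen receptor in the luminal prostate, and KRAB zinc finger proteins recruit TRIM28 to silence the sites they bind. P-values measure the spread between these samples.

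Core histones H2A, H2B, H3 and H4 form the protein spool of the nucleosome, and H1 linker histones bind the DNA where it enters and leaves. Most core histone genes sit in dense clusters, are copied into RNA in S phase, and end their messages in a conserved stem-loop, bound by SLBP, in place of a poly(A) tail. Some of these genes can also end further downstream at a poly(A) signal, and poly(A) libraries see only those messages; H1-10 lies outside the clusters and makes a polyadenylated message.

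By the deposited coordinates (GRCh38), 55 of the 72 genes lay on chromosome 6 between 25723397 and 27893891, 11 on chromosome 1 between 149782689 and 149887965, and 2 on chromosome 1 between 228434777 and 228463104. The other 4 were H1-10 and H1-8 on chromosome 3, and H4C16 and H1-7 on chromosome 12.

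The promoters of H4C8, H2AC6 and H2BC5 are printed because these genes changed most clearly in both knockdowns, and that of H1-10 because it was the 1 member that fell in both; they and the motifs were chosen after the values had been seen. Each runs from 250 bases before to 50 bases after the gene's start (RefSeq, GRCh38.p14), 5′ to 3′ on the gene's strand: H4C8 chr6:26285485-26285784, minus strand; H2AC6 chr6:26123922-26124221, plus strand; H2BC5 chr6:26157871-26158170, plus strand; H1-10 chr3:129316237-129316536, minus strand. Capitals mark matches on either strand to 6 motifs, none of which contains another: the TATA box (TATAAA), the CCAAT box (CCAAT), the octamer bound by OCT1 (ATTTGCAT), the core of the H4 gene element bound by HINFP (GGTCCG), a forkhead core (TGTTTNC) and the cyclic AMP response element (TGACGTCA).
H4C8: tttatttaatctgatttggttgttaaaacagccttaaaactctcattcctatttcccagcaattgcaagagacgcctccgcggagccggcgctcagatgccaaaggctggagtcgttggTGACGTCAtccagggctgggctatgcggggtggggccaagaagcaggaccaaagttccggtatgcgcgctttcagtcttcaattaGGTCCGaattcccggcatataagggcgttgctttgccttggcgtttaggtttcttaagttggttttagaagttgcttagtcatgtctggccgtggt
H2AC6: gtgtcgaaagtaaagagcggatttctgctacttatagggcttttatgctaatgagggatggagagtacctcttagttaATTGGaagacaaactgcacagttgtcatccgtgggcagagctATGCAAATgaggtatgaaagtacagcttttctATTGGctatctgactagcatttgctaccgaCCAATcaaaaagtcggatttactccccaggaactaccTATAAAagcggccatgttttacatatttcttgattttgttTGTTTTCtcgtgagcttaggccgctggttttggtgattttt
H2BC5: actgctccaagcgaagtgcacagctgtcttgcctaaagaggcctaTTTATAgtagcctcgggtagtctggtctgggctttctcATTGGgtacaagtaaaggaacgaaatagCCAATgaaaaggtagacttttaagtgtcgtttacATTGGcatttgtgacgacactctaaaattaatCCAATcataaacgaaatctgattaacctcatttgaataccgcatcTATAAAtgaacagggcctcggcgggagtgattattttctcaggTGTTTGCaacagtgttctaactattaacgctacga
H1-10: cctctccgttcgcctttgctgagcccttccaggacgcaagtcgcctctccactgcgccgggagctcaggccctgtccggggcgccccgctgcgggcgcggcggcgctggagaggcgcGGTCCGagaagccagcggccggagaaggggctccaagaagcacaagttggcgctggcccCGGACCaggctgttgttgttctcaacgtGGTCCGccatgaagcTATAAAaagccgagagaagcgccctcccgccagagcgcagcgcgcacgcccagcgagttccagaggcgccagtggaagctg
H2AC6 and the divergent gene H2BC4 lie 218 bases apart in the deposited coordinates, and 255 bases of the H2AC6 window, which rests on RefSeq starts, also belong to the window of H2BC4. Over the 67 histone genes matched among 27305 promoters, the TATA box was found in 64.2% against 12.0% of all promoters, the CCAAT box in 83.6% against 35.7%, the octamer in 38.8% against 1.80%, the H4 element core in 23.9% against 11.2%, the forkhead core in 25.4% against 18.1% and the cyclic AMP element in 13.4% against 1.98%. The families differed: the octamer was in 14 of 18 H2B and 11 of 16 H2A promoters and in 0 of 13 H4 promoters, and the H4 element core was in 12 of 13 H4 promoters. Among the 27 tested genes with a promoter in the table, the octamer was in 11 promoters, the CCAAT box in 23 and the TATA box in 16, and among the 9 that rose in both the counts were 6, 8 and 7. The forkhead core was in 5 of the 27 and 3 of the 9. A match describes the letters of the window and shows no binding.

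The stem-loops below are printed because each belongs to a gene that was counted in poly(A) RNA and rose in both knockdowns. Capitals mark a stem of 6 base pairs around a loop of 4 bases, found after the coding sequence in GENCODE 29 transcripts, in the 3′ UTR. The search required GG at the start, CC at the end, a T-A pair next to the loop and a loop of TNTN (N is any base), and allowed G-T pairs. Stem-loops of other letters were not looked for.
H4C8: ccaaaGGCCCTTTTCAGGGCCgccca
H2AC6: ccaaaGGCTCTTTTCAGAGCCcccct
H2BC5: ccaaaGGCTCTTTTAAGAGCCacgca
H2BC21: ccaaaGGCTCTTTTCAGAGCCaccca
H3C6: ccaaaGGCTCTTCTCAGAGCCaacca
Of 37 members whose GENCODE 29 transcripts run past the stop codon, 29 held such a stem-loop, 23 held a poly(A) signal in the last 50 bases of a transcript, and 20 held both. A spliced transcript was listed for 14 of the 37. H3C12 is among the 37 only through a transcript without a coding sequence. The features of a gene can lie in different transcripts: in H2BC4 the transcript with the signal had no stem-loop. Of the 9 genes that rose in both knockdowns, 8 were among the 37. Of these, 8 had the stem-loop, 7 had a poly(A) signal in the same or another transcript and 6 had a spliced transcript. A gene had to be counted in poly(A) RNA to be called, and these features were not counted over the tested genes. H2AC18, H2AC19, H3C2 and H3C3 were absent from GENCODE 29. For the remaining members outside the 37 the annotation ended at or near the stop codon, so the 3′ ends of all these genes could not be read.

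Library totals ran from 12256092 to 15152890 counts. FOXA1 stood at 28.6% to 29.2% of its control mean in the 3 FOXA1 knockdown libraries, and TRIM28 at 32.0%, 28.5% and 14% of its control mean in replicates 1, 2 and 3 of the TRIM28 knockdown, where FOXA1 itself was at 47.3%, 43.0% and 70.1%. This fall of FOXA1 in the TRIM28 knockdown was called (log2 change -0.90, SE 0.17, edgeR adjusted p = 0.0055). In the FOXA1 knockdown TRIM28 was at 87.1%, 89.4% and 86.9% of its control mean (log2 change -0.19, SE 0.05, edgeR adjusted p = 0.00221). TRIM28 knockdown replicate 3 stood apart: chi-square per degree of freedom was 20.4 and 22.6 against its replicates and 2.94 to 5.73 over the other 10 replicate pairs, so TRIM28 results are given with and without it. The same library held more fibroblast marker RNA. The 12 stromal, basal and leukocyte markers summed to 254 CPM (counts-per-million) in it and to 32.4 to 47.4 CPM in the other 11 libraries, with COL1A1 at 130 CPM, COL1A2 at 86.7 CPM and DCN at 24.8 CPM, while 7 of the 12 markers reached at most 10 counts in any library and CD3E, CD68 and TP63 were at 0 in it. Their part in the results below was not tested. With 5 of the 12 tested, 0 were called in the FOXA1 knockdown and VWF rose in the TRIM28 knockdown (0.73, adjusted p = 0.0174). The 8 luminal markers, among them KLK3 and KRT8, summed to 3943 to 4041 CPM in the 6 control libraries, 2284 to 2335 CPM in the FOXA1 knockdown and 2420 to 2858 CPM in the TRIM28 knockdown. Of these 8, 3 rose and 4 fell in the FOXA1 knockdown and 0 rose and 5 fell in the TRIM28 knockdown. Over all genes tested, 26.1% rose and 26.3% fell in the FOXA1 knockdown, and 13.3% did each in the TRIM28 knockdown.

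Histone genes took a small share of each library. The 72 genes together made 315 ± 12 CPM of the library total (mean ± SD, n = 3) in the controls for FOXA1 and 311 ± 26 CPM in those for TRIM28. In the knockdowns they made 557 ± 6.8 CPM (FOXA1) and 640.0 ± 141 CPM (TRIM28). The core families were larger in both knockdowns. Their sum was 193, 208 and 196 CPM in the FOXA1 controls and 461, 463 and 463 CPM in the FOXA1 knockdown, 2.32 times the control mean. It was 193, 208 and 182 CPM in the TRIM28 controls and 653, 638 and 382 CPM in the TRIM28 knockdown, 2.87 times the control mean and 3.32 times without replicate 3. No knockdown library overlapped the controls in this sum, and replicate 3 was the lowest of its group. By family, knockdown over control was 3.89 and 3.95 times for H4 (FOXA1, then TRIM28), 1.97 and 2.88 times for H2A, 1.85 and 2.47 times for H2B and 1.54 and 1.84 times for H3. These sums were not tested.

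The sum of the 9 H1 genes was below all of its controls in the 6 knockdown libraries. It was 129, 114 and 105 CPM in the FOXA1 controls and 91.4, 89.7 and 101 CPM in that knockdown. In the TRIM28 pair it was 122, 126 and 101 CPM in the controls and 75.3, 76.6 and 94.97 CPM in the knockdown, where replicate 3 was the highest. H1-10 made most of this sum in the controls: it stood at 84.3 ± 12 CPM in the FOXA1 controls and 53.1 ± 3.5 CPM in that knockdown, and at 84.6 ± 9.3 and 45.9 ± 2.7 CPM in the TRIM28 pair (mean ± SD, n = 3). Without H1-10 the H1 sum was 32.4, 30.5 and 32.7 CPM in the FOXA1 controls and 42.3, 35.3 and 45.6 CPM in that knockdown, so the groups stood in the opposite order. In the TRIM28 pair it was 31.7, 35.6 and 27.6 CPM and then 30.6, 32.7 and 46.0 CPM, with overlapping groups.

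**Figure D1:**
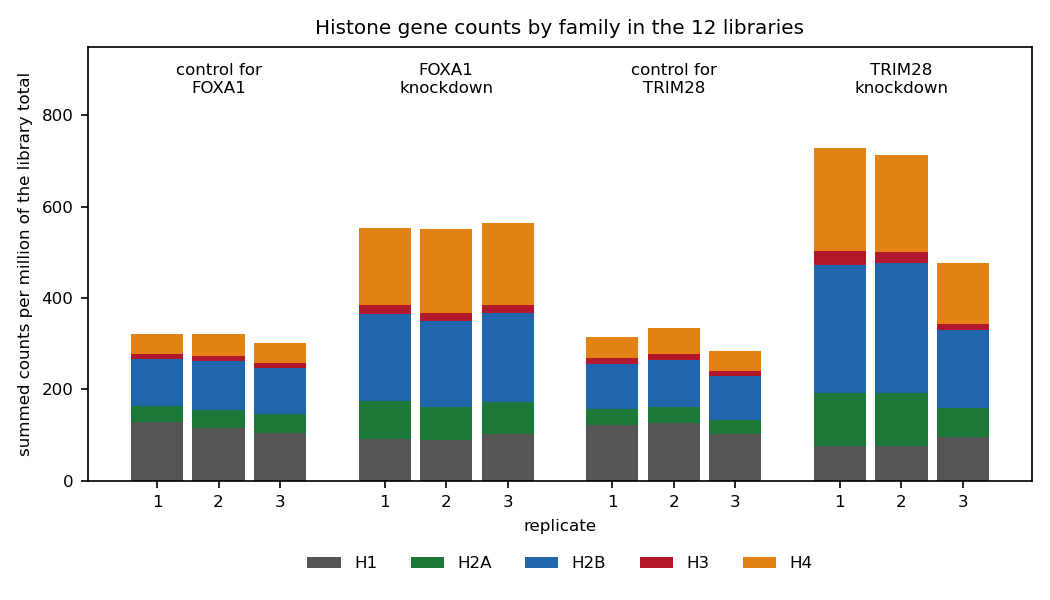
Summed CPM of the library total (y axis) of the H1, H2A, H2B, H3 and H4 genes, stacked for each of the 12 libraries (x axis: replicate within the 4 groups). The core families are larger in all 6 knockdown libraries than in the 6 controls, and TRIM28 knockdown replicate 3 has the smallest core sum of the 6, at 382 CPM.

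The 72 genes differed widely in level, and most were close to the limit of detection: 10 had no count in any library, 29 reached at most 9 counts, and 33 reached 10 or more. Between 40 and 51 of them had a count in a given library. Compared per length in the 6 control libraries, H2BC12 stood at 70.5 ± 2.4 FPKM (mean ± SD, n = 6). Next in order came H1-10 at 55.7 ± 6.3, H1-2 at 37.9 ± 3.3, H2BC5 at 20.5 ± 1.9, H4C8 at 17.2 ± 2.6 and H4C3 at 16.6 ± 4.9 FPKM. The first 3 of these were separated by more than their SD, whereas the SDs of H2BC5, H4C8 and H4C3 overlapped. FPKM here rests on 1 length per gene in the authors' table, which for a gene with a short and a long message is a compromise.

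A gene entered the test where at least 3 libraries of the pair reached about 10 counts, which left 26 histone genes in the FOXA1 pair and 28 in the TRIM28 pair. The others were too low to test, so their lack of a call carries no information. Members of these families have near-copies elsewhere, and how reads that fit several genes were counted is not given in the sources used here. Of 68 members with a coding sequence in GENCODE 29, 6 shared it letter for letter with another member (H3C14 with H3C15, H4C11 with H4C12, H4C14 with H4C15). In bulk RNA, more cells that make a message and more message per cell cannot be told apart.

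In the FOXA1 knockdown, 11 of the 26 tested histone genes rose and 2 fell (edgeR's quasi-likelihood test, adjusted p under 0.05). Over all 14953 genes tested, 26.1% rose and 26.3% fell. The median log2 fold change was 0.33 over the 26 genes and -0.02 over all genes. All 11 that rose had each of their 3 control libraries over the filter level, and in all 11 the knockdown libraries lay above the controls. How often the groups separate among all genes that rose was not computed, so this separation is no result about histone genes. By family, 6 of 12 H2B genes rose and 0 fell, 1 of 6 H2A rose, 2 of 2 H3 rose, 1 of 3 H4 rose and 1 fell, and 1 of 3 H1 rose and 1 fell.

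H4C8 encodes histone H4 from a gene in the chromosome 6 cluster (ENSG00000158406, chromosome 6, 26277609 to 26285638, minus strand). It stood at 36.2, 36.2 and 32.4 CPM (scaled by TMM) in the controls and at 158, 174 and 173 CPM in the FOXA1 knockdown. The 2 groups were far apart, and the log2 fold change of 2.26 had an SE of 0.06 (edgeR adjusted p = 5.23e-22). H4C8 made 73.7% to 80.6% of all H4 counts in these controls and 94.0% to 96.2% in the knockdown, so the H4 sum above is mostly this gene.

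H2AC6, which encodes a core H2A (ENSG00000180573, chromosome 6, 26124145 to 26139116, plus strand), was at 19.0, 22.7 and 22.9 CPM in the controls and 65.6, 55.5 and 56.2 CPM in the FOXA1 knockdown (log2 change 1.46, SE 0.09, edgeR adjusted p = 3.37e-14). Its divergent neighbour H2BC4, an H2B gene that shares the promoter printed above, was at 10.1, 8.70 and 8.36 CPM and then at 25.0, 23.4 and 23.6 CPM (1.41, SE 0.11, edgeR adjusted p = 1.95e-11). The fold changes of this divergent pair were close to each other, and in neither gene did the groups overlap. H2BC5, another H2B gene (ENSG00000158373, chromosome 6, 26158122 to 26171349, plus strand), was at 16.2, 18.1 and 16.9 CPM in the controls and 40.3, 42.3 and 42.8 CPM in the knockdown (1.29, SE 0.09, edgeR adjusted p = 2.97e-13).

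H2BC6 was at 2.01, 2.61 and 2.35 CPM in the controls and reached 8.53, 9.71 and 11.6 CPM (log2 change 2.09, SE 0.19, edgeR adjusted p = 2.40e-10). H2BC7 was at 1.15, 0.803 and 0.836 CPM against 3.77, 2.69 and 4.40 CPM (1.96, SE 0.31, edgeR adjusted p = 3.60e-06). The fold changes of these H2B genes were near that of H4C8. Those of H2BC12 and H2BC21 were smaller. H2BC12 went from 35.0, 36.9 and 35.4 to 56.3, 56.6 and 57.6 CPM (0.67, SE 0.07, edgeR adjusted p = 3.59e-09), and H2BC21 from 22.2, 23.4 and 20.0 to 38.6, 34.6 and 36.1 CPM (0.73, SE 0.09, edgeR adjusted p = 4.38e-08). Of the 2 tested H3 genes, H3C6 went from 4.46, 4.15 and 5.01 to 8.99, 8.14 and 7.54 CPM (0.86, SE 0.17, edgeR adjusted p = 8.89e-05), and H3C10 rose by 0.43 (SE 0.15, adjusted p = 0.0197). The call for H3C10 was lost without control replicate 1 (adjusted p = 0.0635) or knockdown replicate 1 (adjusted p = 0.0865).

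Linker histone genes moved apart in the FOXA1 knockdown. H1-10, the H1X linker histone (ENSG00000184897, chromosome 3, 129314771 to 129316286, minus strand), stood at 96.8, 84.3 and 73.7 CPM in the controls and 49.2, 54.0 and 55.7 CPM in the knockdown (log2 change -0.68, SE 0.08, edgeR adjusted p = 1.05e-06). H1-2, a linker histone of the chromosome 6 cluster (ENSG00000187837, 26055740 to 26056470, minus strand), rose instead, from 28.9, 26.4 and 28.3 CPM to 37.6, 31.1 and 39.5 CPM (0.37, SE 0.09, edgeR adjusted p = 0.000863). H1-4, another linker histone of this cluster, was at 3.67, 4.08 and 4.71 CPM and then 4.36, 3.66 and 5.59 CPM, and its groups overlapped (0.13, SE 0.21, adjusted p = 0.621).

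H4C3 was the 1 core histone gene that fell in the FOXA1 knockdown, from 6.47, 9.77 and 8.43 CPM to 6.41, 4.93 and 3.77 CPM (log2 change -0.70, SE 0.19, edgeR adjusted p = 0.00298). The highest knockdown library and the lowest control library were almost equal, though the groups did not overlap. H4C3 was also the member with the smallest p between the control groups: on a scale common to both, it was at 8.22 ± 1.6 CPM in the controls for FOXA1 and 5.27 ± 1.0 CPM in the controls for TRIM28 (n = 3 each, log2 difference -0.64, SE 0.19, unadjusted p = 0.00217, adjusted p = 0.992). The 13 tested members without a call, H1-4 included, had log2 fold changes between -0.72 (H2BC13) and 0.48 (H4C5) with adjusted p of 0.113 or more.

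In the TRIM28 knockdown, 13 of the 28 tested histone genes rose and 1 fell by the same test. Over all 14981 genes tested, 13.3% rose and 13.3% fell. The median log2 fold change was 0.76 over the 28 genes and 0.00 over all genes. Without replicate 3, 17 rose and 1 fell, where 21.9% of all genes rose and 23.9% fell, and the median was 0.97. The 13 called with all libraries were all called without it, and H2AC13, H2AC25, H2BC11 and H3C10 were added. Scaling by library size alone moved the share of rises among all calls from 49.9% to 63.4% and left the histone counts at 13 and 1. By family with all libraries, 9 of 12 H2B genes rose, 1 of 6 H2A, 1 of 2 H3, 2 of 5 H4 and 0 of 3 H1, and H1-10 was the 1 that fell. H4C15 was in the test only because its knockdown libraries were high, and it is also among the 17 rises without replicate 3. Leaving it out of the counts with all libraries, 12 of 27 rose, and 1 of 4 H4.

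H4C8 stood at 39.2, 49.9 and 33.7 CPM in the controls for TRIM28 and at 209, 197 and 123 CPM in replicates 1, 2 and 3 of the knockdown (log2 change 2.11, SE 0.22, edgeR adjusted p = 0.000908; 2.31 without replicate 3). H2AC6 was at 20.5, 21.4 and 17.0 CPM and then at 84.8, 89.3 and 50.9 CPM (1.93, SE 0.21, edgeR adjusted p = 0.000722; 2.14 without replicate 3). In both genes replicate 3 lay between the controls and the other knockdown libraries. H2BC4 showed the same order, at 8.65, 10.9 and 8.31 CPM against 32.4, 33.4 and 18.9 CPM (1.60, SE 0.22, edgeR adjusted p = 0.0013), as did H2BC6, at 1.59, 3.31 and 2.22 CPM against 12.7, 13.5 and 7.15 CPM (2.23, SE 0.32, edgeR adjusted p = 0.00143).

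H2BC5 had the smallest p among these genes. It was at 14.5, 18.1 and 14.8 CPM in the controls and 48.6, 50.3 and 36.3 CPM in the TRIM28 knockdown (log2 change 1.51, SE 0.15, edgeR adjusted p = 0.00028). H2BC12 went from 35.1, 36.6 and 34.1 CPM to 67.7, 74.7 and 55.4 CPM (0.90, SE 0.12, edgeR adjusted p = 0.000884), and H2BC15, an H2B gene with long spliced messages, from 5.84, 7.45 and 6.34 CPM to 13.5, 14.7 and 9.91 CPM (0.96, SE 0.20, edgeR adjusted p = 0.00631). In these 3 genes too the groups did not overlap and replicate 3 was the lowest knockdown library, which held for 12 of the 13 genes that rose and for 2 of the 11 that rose in the FOXA1 knockdown. This library stood apart over all genes, and the same count over all genes that rose was not made. Whether the order is particular to histone genes was not tested.

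The remaining calls rested on fewer counts or on a wider spread. H2BC18, an H2B gene of the chromosome 1 cluster, went from 0.865, 0.602 and 1.15 CPM to 3.91, 2.99 and 2.03 CPM (log2 change 1.77, SE 0.38, edgeR adjusted p = 0.00819), and 1 of its 3 control libraries was under the filter level. H4C15 had 1, 3 and 3 counts in the controls and 11, 18 and 17 in the knockdown. It passed the filter through the knockdown libraries alone, so that only a rise could be called, and its p in this comparison is not given. H4C14, whose coding sequence is identical, had 4, 3 and 3 counts and then 10, 3 and 6. H2BC21 (1.29), H2BC7 (1.37), H3C6 (0.78) and H2BC26 (1.49) had adjusted p of 0.0185 to 0.025. Their calls were lost without any 1 of the 3 controls or without knockdown replicate 2, and, except for H2BC21, without knockdown replicate 1 (edgeR adjusted p between 0.0519 and 0.102). Under these settings 9 or 10 histone genes rose. The shares of all genes that rose under them are not given here, so the lower counts are no result about histone genes. H2BC21 shows the spread: it was at 24.8, 23.5 and 22.8 CPM in the controls and 74.3, 70.7 and 29.4 CPM in the knockdown, and its log2 fold change without replicate 3 was 1.61.

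**Figure D2:**
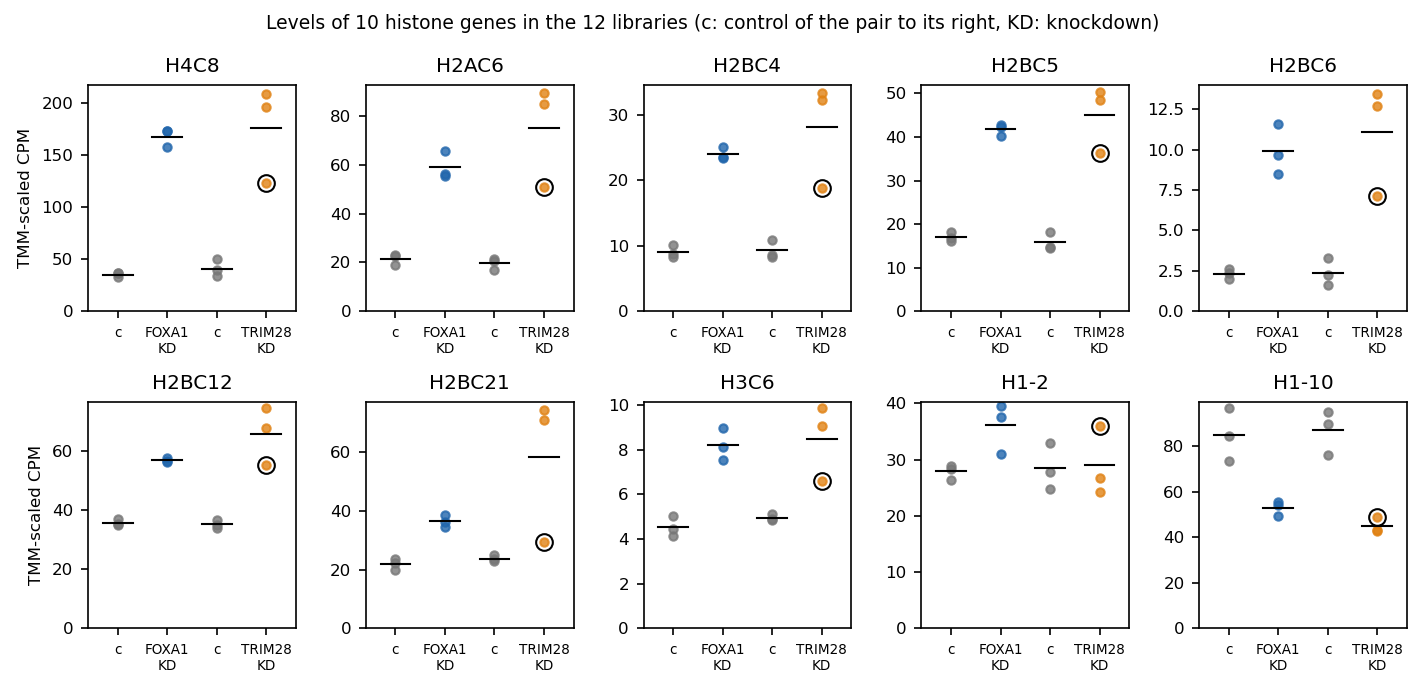
TMM-scaled CPM (y axis, linear from 0) of 10 histone genes in the 3 libraries of each group (points; lines: group means), each knockdown to the right of its control; TRIM28 knockdown replicate 3 is ringed. In H4C8 it lies at 123 CPM, below the other knockdown libraries at 209 and 197 CPM and above the controls.

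Among the linker histone genes, H1-10 fell from 89.9, 95.1 and 76.1 CPM in the controls for TRIM28 to 43.3, 42.7 and 48.7 CPM in the knockdown (log2 change -0.95, SE 0.11, edgeR adjusted p = 0.000551; -1.02 without replicate 3). All 3 knockdown libraries were alike, replicate 3 included. H1-2 was at 27.8, 32.9 and 24.8 CPM and then at 24.2, 26.8 and 36.0 CPM (0.02, SE 0.16, adjusted p = 0.93), and H1-4 at 3.82, 4.59 and 3.54 CPM and then at 4.44, 4.33 and 8.53 CPM (0.53, SE 0.29, adjusted p = 0.206). In both of these genes replicate 3 was the highest library. H4C3 was at 4.18, 6.32 and 5.84 CPM and then at 2.41, 5.19 and 5.20 CPM, with overlapping groups (-0.35, SE 0.31, adjusted p = 0.422). The other 11 tested members without a call ranged in log2 fold change from -0.52 (H2AC20) to 0.87 (H3C10), and the smallest adjusted p among them was 0.0689 (H2BC11). H3C10 was at 6.70, 6.84 and 6.91 CPM in the controls and 17.5, 13.8 and 5.85 CPM in the knockdown, where replicate 3 lay below the controls.

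**Figure D3:**
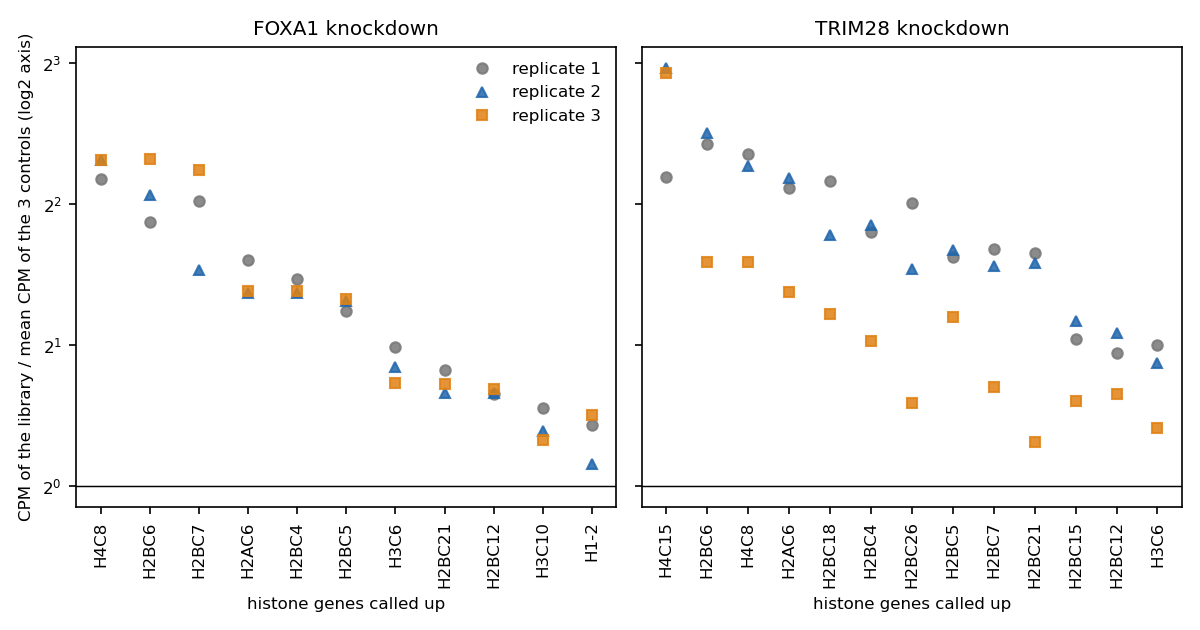
CPM of each knockdown library divided by the mean of its 3 controls (y axis, log2 axis; 1 is the control mean) for the histone genes that rose (x axis), in the FOXA1 knockdown (left, 11 genes) and the TRIM28 knockdown (right, 13 genes). Replicate 3 of the TRIM28 knockdown is the lowest symbol in 12 of 13 genes, whereas replicate 3 of the FOXA1 knockdown is the lowest in 2 of 11. The same count over all genes that rose was not made.

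The calls of the 2 knockdowns overlapped. H2AC6, H2BC4, H2BC5, H2BC6, H2BC7, H2BC12, H2BC21, H3C6 and H4C8 rose in both, that is 9 of the 11 that rose in the FOXA1 knockdown and 9 of the 13 in the TRIM28 knockdown (12 without H4C15). Over all genes tested, 26.1% rose in the FOXA1 knockdown and 13.3% in the TRIM28 knockdown. How many of all genes rose in both was not computed. H1-10 fell in both, and 0 were called in opposite directions. H1-2 and H3C10 were called as rises in the FOXA1 knockdown alone, and H2BC15, H2BC18, H2BC26 and H4C15 in the TRIM28 knockdown alone. H4C15 was not tested in the FOXA1 pair. The pairs have separate controls, but FOXA1 RNA itself fell in the TRIM28 knockdown, and its part in this overlap was not tested. Across the 26 genes tested in both, the log2 fold changes correlated at Pearson r = 0.76 and Spearman rho = 0.71, a description across genes that are not independent of each other. The correlation over all genes was not computed. Whether the agreement of the knockdowns is particular to histone genes was therefore not tested.

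Tested directly over all 12 libraries, the effects differed for 2 of 28 histone genes, both larger in the TRIM28 knockdown, where 10.6% of all 15921 genes differed. H2BC18 was the clearer: it stood at 0.935, 1.81 and 1.44 CPM in the controls for FOXA1 and 0.595, 1.19 and 1.26 CPM in that knockdown, against the rise in the TRIM28 knockdown given above (difference of log2 effects 2.22, SE 0.56, adjusted p = 0.0162 by edgeR). The control means of H2BC18 themselves differed in the same sense as the difference, at 1.39 ± 0.43 CPM for FOXA1 and 0.847 ± 0.27 CPM for TRIM28 on their common scale (n = 3 each, log2 difference -0.73, SE 0.41, unadjusted p = 0.0873, adjusted p = 0.992 by edgeR). The libraries of these control groups overlapped, and the gene was not called between them. The call was lost without replicate 2 of the FOXA1 controls (1.99, adjusted p = 0.0567). H2BC15 was at 6.97, 7.63 and 6.84 CPM in the controls for FOXA1 and 8.59, 7.39 and 7.19 CPM in that knockdown, with overlapping groups (difference 0.83, SE 0.24, adjusted p = 0.0319 by edgeR). Its call was lost in 9 of the 12 fits that left out 1 library, at adjusted p of 0.0516 to 0.0845. For the other genes called in 1 knockdown alone, the difference itself missed the threshold: -0.36 (SE 0.20, adjusted p = 0.281) for H1-2, 0.43 (SE 0.39, adjusted p = 0.541) for H3C10, 1.23 (SE 0.59, adjusted p = 0.207) for H2BC26 and 1.95 (SE 1.20, adjusted p = 0.341) for H4C15. Scaling by library size alone moved the share of positive differences among all calls from 43.4% to 60.0%.

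For the genes that rose in both, the difference missed the threshold in each. It was -0.17 (-0.69 to 0.35 at 2 SE either side) for H4C8, 0.13 (-0.64 to 0.89) for H2BC6, 0.21 (-0.13 to 0.55) for H2BC5 and 0.47 (-0.05 to 0.98) for H2AC6, and each of these ranges included 0. Without TRIM28 knockdown replicate 3 the difference was called for 9 of 28 histone genes, 8 larger in the TRIM28 knockdown and 1 smaller, against 22.5% of all genes. Those 8 included H2AC6 (0.68, adjusted p = 0.000169) and H2BC21 (0.86, adjusted p = 9.41e-07), and the 1 smaller was H1-2 (-0.55, adjusted p = 0.00564), whereas the difference for H4C8 was 0.03 (SE 0.15, adjusted p = 0.922).

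**Figure D4:**
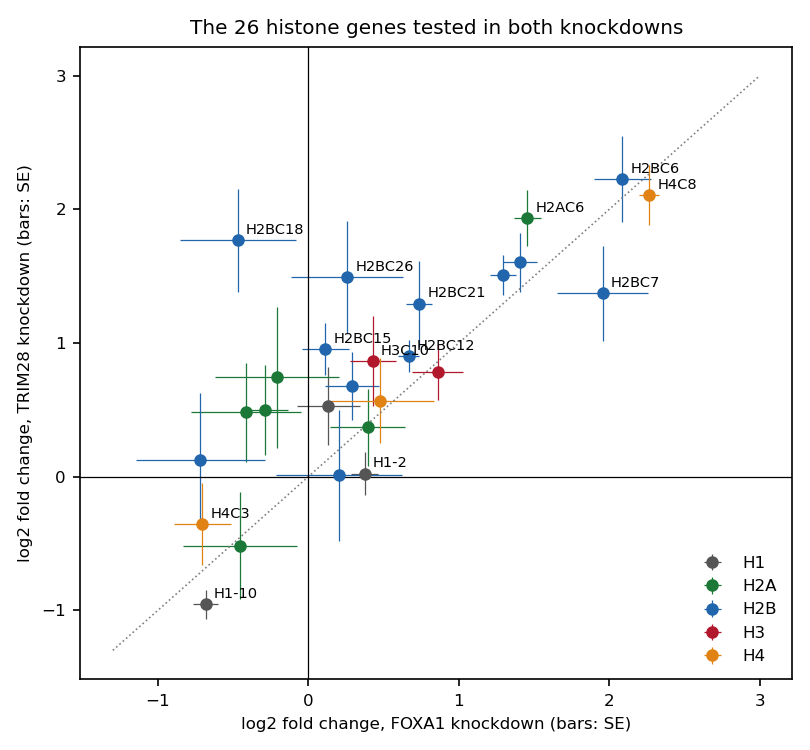
Log2 fold change in the FOXA1 knockdown (x axis) against that in the TRIM28 knockdown (y axis) for the 26 histone genes tested in both, coloured by family, with SE bars; the dotted line marks equal changes. H4C8 and H2BC6 lie near the line at the upper right, and H2BC18 lies far above it.

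Between the control groups, 0 of 26 tested histone genes differed by edgeR, and 0.0% of 14839 genes did; DESeq2 called 0 as well. At an unadjusted p under 0.05 there was 1 histone gene, H4C3, and 635 of all genes.

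Position and length were looked at after the calls were known. Of 21 histone genes spanning over 1000 bases in the deposited coordinates, 14 were tested and 8 rose in the FOXA1 knockdown, and 15 were tested and 11 rose in the TRIM28 knockdown. Of 51 spanning 1000 bases or less, 12 and 13 were tested, and 3 and 2 rose. Without TRIM28 knockdown replicate 3, 14 of 15 longer and 3 of 13 shorter genes rose. The shares of all genes that rose were 26.1% (FOXA1), 13.3% (TRIM28) and 21.9% (TRIM28 without replicate 3), so the counts of shorter genes were near these shares. On chromosome 6, 10 of 20 tested genes rose in the FOXA1 knockdown and 9 of 21 in the TRIM28 knockdown, and on chromosome 1 it was 1 of 5 and 4 of 6. The TRIM28 counts of longer genes and of chromosome 1 include H4C15. It entered that test through its knockdown libraries alone, so that only a rise could be called, and it was not tested in the FOXA1 pair.

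Among the 22 protein-coding genes that lie between the histone genes of these clusters, 15 were tested, and 4 rose and 4 fell in the FOXA1 knockdown and 4 rose and 1 fell in the TRIM28 knockdown (6 and 3 without replicate 3). Over all genes 26.1% rose and 26.3% fell in the FOXA1 knockdown and 13.3% did each in the TRIM28 knockdown, so in the former these counts were at the background and are no result about the clusters. TRIM38, an E3 ligase gene at chromosome 6, 25962802 to 25991231, rose by 1.38 and 1.34 (adjusted p = 6.34e-11 and 0.000901 by edgeR). HFE, which encodes the iron regulator of hereditary haemochromatosis, at 26087281 to 26098343 on the same chromosome, rose by 1.86 and 2.02 (adjusted p = 2.02e-05 and 0.0121). BTN3A2, a butyrophilin gene, fell by 1.23 in the FOXA1 knockdown (adjusted p = 7.40e-09), and BOLA1 fell by 0.61 in the TRIM28 knockdown (adjusted p = 0.00914).

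Some members overlap other genes, and whether counting used strand is not given in the sources used here. AL353759.1, on the strand opposite H2BC5 and H2BC6, had 9, 1 and 5 counts in the controls for TRIM28 and 26, 38 and 17 in that knockdown, and its log2 change in the FOXA1 knockdown was 0.87 (adjusted p = 0.0602). LARP1P1, which lies within H2BC5 on its strand, had 1, 0 and 1 counts in the controls for TRIM28 and 11, 10 and 12 in that knockdown. Both passed the filter of the TRIM28 pair through the knockdown libraries alone, so that only a rise could be called there, and no test is given. H1-10-AS1, opposite H1-10, was at 1.22 to 2.67 CPM in the TRIM28 pair and 1.32 to 2.56 CPM in the FOXA1 pair and was called in neither. AC243772.2, which overlaps H2BC18 on its strand, rose by 1.10 and by 1.70 (edgeR adjusted p = 0.0242 and 0.0467) in the FOXA1 and TRIM28 knockdowns. It was low: 0.792, 0.285 and 0.799 CPM of the library total in the controls for TRIM28. In that knockdown it was at 2.88, 2.83 and 0.734 CPM, so these groups overlapped through replicate 3. Whether reads of such pairs were split correctly was not tested.

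The accompanying lists describe the machinery around histone genes. They were read as counts of calls. Over all genes tested, 26.1% rose and 26.3% fell in the FOXA1 knockdown, and 13.3% did each in the TRIM28 knockdown (21.9% and 23.9% without replicate 3). Counts near these shares are no result about a list. Of 9 tested histone variant genes outside the clusters, 4 rose and 1 fell in the FOXA1 knockdown (median log2 fold change 0.08) and 1 rose and 2 fell in the TRIM28 knockdown (median -0.11). H3-3A and H3-3B, which both encode the replacement histone H3.3, rose by 0.68 and 0.46 in the FOXA1 knockdown (adjusted p = 6.71e-13 and 4.83e-10 by edgeR), as did H2AX, the variant phosphorylated at DNA breaks (0.88, adjusted p = 1.48e-07). In the TRIM28 knockdown H3-3B rose by 0.50 (adjusted p = 0.00204), while H2AZ1, which encodes H2A.Z, fell by 0.68 and CENPA, the centromeric H3, by 0.81 (adjusted p = 0.000794 and 0.00357).

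All 15 genes of histone gene transcription were tested, and 7 rose and 2 fell in the FOXA1 knockdown (median 0.12) and 4 rose and 3 fell in the TRIM28 knockdown (median 0.02). CCNE1, the cyclin E that with CDK2 activates the histone gene coactivator NPAT, rose by 1.20, EP300 by 0.41 and E2F3 by 0.51 in the FOXA1 knockdown (adjusted p = 3.75e-09, 6.30e-07 and 6.66e-07 by edgeR). The same genes rose in the TRIM28 knockdown, by 1.06, 0.35 and 0.44 (adjusted p = 0.0103, 0.0161 and 0.0144). In the TRIM28 knockdown E2F1 fell by 1.24, CDK2 by 0.71 and HINFP, the H4 promoter factor, by 0.52 (adjusted p = 0.000551, 0.00245 and 0.0068 by edgeR). Of these, E2F1 and HINFP also fell in the FOXA1 knockdown, by 0.32 and 0.53 (adjusted p = 0.000139 and 1.93e-05), and CDK2 had a log2 change of 0.12 there (adjusted p = 0.133).

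Of 26 tested genes of histone message 3′ end processing and decay, 7 rose and 11 fell in the FOXA1 knockdown and 3 rose and 4 fell in the TRIM28 knockdown (4 and 13 without replicate 3). The rises in the FOXA1 knockdown, and both counts in the TRIM28 knockdown with all libraries, were near the shares of all genes and are no result about this list. UPF1, a helicase of histone message decay, rose by 0.61, and of the Sm proteins SNRPB fell by 0.46 and SNRPD3 rose by 0.52 (adjusted p = 2.18e-09, 1.03e-07 and 2.01e-07 by edgeR). In the TRIM28 knockdown SNRPB fell by 0.76, NCBP2 of the cap-binding complex rose by 0.67 and EXOSC10 of the exosome fell by 0.50 (adjusted p = 0.000655, 0.000695 and 0.00436). SLBP, the stem-loop binding protein itself, rose by 0.39 in the FOXA1 knockdown (adjusted p = 7.8e-06), had a log2 change of -0.27 in the TRIM28 knockdown (adjusted p = 0.139), and was the 1 gene of this list whose effects differed (-0.67, SE 0.14, adjusted p = 0.00544).

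Chaperones that carry and deposit histones gave 11 rises and 8 falls of 26 tested in the FOXA1 knockdown and 1 rise and 7 falls in the TRIM28 knockdown (5 and 14 without replicate 3). NAP1L1 fell by 0.85, SSRP1 of the FACT complex by 0.62 and NPM1 by 0.58 in the FOXA1 knockdown (adjusted p = 2.66e-16, 1.83e-12 and 1.84e-12 by edgeR), and in the TRIM28 knockdown UBN2 rose by 0.76, MCM2 fell by 0.99 and NPM1 fell by 0.59 (adjusted p = 0.000536, 0.000826 and 0.00163).

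Of 30 tested S phase genes, 9 rose and 10 fell in the FOXA1 knockdown (median log2 fold change 0.02), with RRM2 up by 0.87, FEN1 up by 0.91 and MCM7 down by 0.48 (adjusted p = 2.52e-15, 9.69e-12 and 5.26e-10 by edgeR). In the TRIM28 knockdown 0 rose and 13 fell (median -0.48), and without replicate 3 it was 0 and 27 (median -0.67); CDT1 fell by 1.44, MCM7 by 1.00 and RFC4 by 0.60 (adjusted p = 0.000345, 0.000791 and 0.00257). Of 19 tested mitosis genes, 1 rose and 12 fell in the FOXA1 knockdown and 0 rose and 11 fell in the TRIM28 knockdown (0 and 19 without replicate 3), among them CENPE (-0.48), CENPF (-0.39) and TTK (-0.53) in the first and AURKB (-1.06), CCNB1 (-0.77) and UBE2C (-0.94) in the second.

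RNAs that are made without a poly(A) tail were also listed. The 20 listed summed to 50.2 to 69.4 CPM in the controls for FOXA1, 33.5 to 75.8 CPM in that knockdown, 37.4 to 65.6 CPM in the controls for TRIM28 and 49.6 to 102 CPM in that knockdown, so the groups overlapped in each pair. Of the 4 and 3 tested, RMRP fell by 1.15 and 1.08 and SNORD3A by 1.95 and 1.80 (adjusted p = 5.33e-05, 0.043, 6.05e-05 and 0.0458 by edgeR). RN7SL1 made most of the sum, at means of 50.6, 45.3, 42.9 and 65.2 CPM in the 4 groups in the order above. The overlap of the sums therefore rests largely on this RNA, and it does not show how much histone message without a tail was counted.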

How the data were processed

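RNA-seq was made from poly(A)-selected total RNA of LNCaP cells, per the labels' protocols. The authors deposited raw counts per gene and FPKM values for each pair of groups, mapped to GRCh38 per the submitters' processing notes. The aligner is not given in the sources used here, nor are the counter, the strand setting and the annotation release. The deposited FPKM equalled count over length and library total for all 33045 genes checked (tolerance 0.001) and served only to compare genes.

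Counts were fitted over all genes with edgeR 4.0.16 (R 4.3.3): TMM scaling, filterByExpr (minimum count 10, total 15), robust quasi-likelihood F-test, two-sided, Benjamini-Hochberg adjustment over all genes tested, threshold 0.05. Each knockdown was fitted with its own 3 controls, and the difference between effects over all 12 libraries. CPM beside a test is TMM-scaled within its fit. The fit was tested on simulated data. Motifs were searched in RefSeq promoters (GRCh38.p14) and stem-loops in GENCODE 29 transcripts, an annotation that need not be the authors'. Alternatives were library-size and RLE scaling, DESeq2 1.42.0, no filter or a mean of 10 counts, a replicate block, a joint fit, and leaving out each library.

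The histone genes and the accompanying lists were chosen with earlier results of these data known. 1 gene matched by the rule stayed in all fits and is not reported here. Named were the called genes with the smallest p (up to 10 per knockdown), the 6 highest by FPKM in the controls, up to 3 per direction in the difference and between the controls, the linker histone genes H1-2, H1-4 and H1-10, and up to 3 called genes per list. Genes that overlap members and the split at 1000 bases were chosen after values were seen.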

Additional observations from a re-analysis of the deposited data

Results flagged for a closer look

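H2BC18 was singled out because its response differed between the knockdowns by the test of the difference itself: the TRIM28 effect exceeded the FOXA1 effect by 2.22 on the log2 scale (SE 0.56, edgeR adjusted p = 0.0162). It had few counts, and its control groups, which overlapped, differed in mean by -0.73 (log2, TRIM28 over FOXA1 controls, SE 0.41, edgeR unadjusted p = 0.0873). Without replicate 2 of the FOXA1 controls the difference between the effects was 1.99 (edgeR adjusted p = 0.0567). H2BC15 was singled out by the same test, with a difference of 0.83 (SE 0.24, edgeR adjusted p = 0.0319) that lost its call in 9 of the 12 fits without 1 library.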

How the results depend on the processing

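Over the alternatives run for single genes, 401 values kept their direction and side of the threshold, 34 kept their direction and lost the call, and 3 changed sign. The sign changes were in linker histone genes with log2 fold changes near 0: H1-4 in the FOXA1 knockdown (-0.036 without knockdown replicate 3, range -0.036 to 0.27) and H1-2 in the TRIM28 knockdown (-0.07 without control replicate 3 and -0.16 without knockdown replicate 3, range -0.16 to 0.14). Leaving out 1 library gave for the difference 0 to 9 calls, of which 0 to 8 were positive and 0 to 1 negative. The joint fit of all 12 libraries gave 9 rises and 2 falls in the FOXA1 knockdown, where H3C10 and H2BC21 lost their calls (adjusted p = 0.233 and 0.0593), and 15 and 1 in the TRIM28 knockdown; the cause was not tested. Without a filter, H2BC21 lost its call in the TRIM28 knockdown (adjusted p = 0.184). DESeq2 gave 11 rises and 2 falls in the FOXA1 knockdown, where 3589 of all 14953 genes rose and 3461 fell. In the TRIM28 knockdown it gave 14 and 1, where 2117 of all 14981 genes rose and 2049 fell. For the joint fit and the fits without 1 library, calls over all genes are not given here, except without TRIM28 knockdown replicate 3. The summed share without H4C8, the member with the largest mean, was 281 CPM in the FOXA1 controls, 388 in that knockdown, 271 in the TRIM28 controls and 459 in that knockdown. With TMM factors of all 12 libraries, the full sum was 323 CPM in the FOXA1 controls, 567 in that knockdown, 314 in the TRIM28 controls and 611 in that knockdown.

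Same-numbered replicates did not deviate together (correlations -0.021 to 0.103 in the FOXA1 pair, -0.084 to 0.025 in the TRIM28 pair), so the numbers were not taken to pair the samples. With the replicate block, 11 histone genes rose and 2 fell in the FOXA1 knockdown, 13 and 1 in the TRIM28 knockdown, and 2 differed between them. Calls over all genes are not given here for this block. Depth limited the reading most for the 39 members that stayed under 10 counts in every library.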
